A study of Mus musculus with 30 samples.

Results

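The regions described here are the genomic neighbourhoods of 9 apolipoprotein genes in livers of mice treated with transposon gene therapy. They were defined by position alone, as 3 windows of the mouse build GRCm39, and were chosen with earlier results of these data known. The Apoa1 cluster window (Apoa1, Apoc3, Apoa4 and Apoa5) is chr9:46000001-46300000, the Apob window is chr12:7950001-8150000 and the Apoe cluster window (Apoe, Apoc1 and their neighbours Apoc2 and Apoc4) is chr7:19350001-19500000. Together they held 1466 of 2181704 nuclear insertion sites, of which 1079 came from piggyBac (PB) and 387 from Sleeping Beauty (SB) livers.

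The mice were Fah knockouts (TT1 mice), in which the gene for the enzyme that completes tyrosine degradation, fumarylacetoacetate hydrolase, is disrupted. They received a therapeutic transposon in either the PB system (17 livers) or the SB system (13 livers). The labels give no untreated group, and no strain, age, sex, dose, vector promoter or time of collection. Genomic DNA was taken from whole livers at the end of monitoring, so the sites come from hepatocytes and any other liver cells that carried an insertion. Insertion junctions were amplified by nested PCR with a biotinylated transposon primer (SBE-seq).

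Apolipoproteins are the protein part of the particles that carry lipids in blood, and hepatocytes make most of them. Apolipoprotein B forms the backbone of very low density lipoprotein, and apolipoprotein A-I that of high density lipoprotein. Apoe encodes a ligand of the low density lipoprotein receptor. Apoc2 encodes the cofactor of lipoprotein lipase, Apoc3 encodes an inhibitor of triglyceride clearance and Apoa5 promotes that clearance. PB and SB are DNA transposons that integrate at TTAA and at TA, respectively. In Fah-deficient liver, hepatocytes with restored Fah are known to outgrow their neighbours, which was not measured here.

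The letters that both transposases need are shown here in promoters of the members, because PB integrates almost only where TTAA stands. Of 9 genes, 7 had a promoter in the RefSeq promoter table of GRCm38.p6, with 10 entries of 300 bases between them. Apoc1 and Apoc3 are named only. TTAA (its own reverse complement, so the same on both strands) occurred in 4 of these 10 entries and in 52.4% of all 32851 promoters of the table. TA, which also lies inside TTAA, occurred in every member entry, 5 to 20 times, against a median of 10 over all promoters. The 4 entries below run from no TTAA to 3, with TTAA in capitals, though most member entries hold none. Apoe has 3 entries, with 0, 1 and 3 TTAA, of which the last is printed. The Apoe entries with 1 and 3 overlap and share a TTAA, so the count of 4 entries holds that stretch more than once. Coordinates of all entries are those of GRCm38.p6 and cannot be set against the GRCm39 positions of the insertion sites. A match is thus a sequence feature and not an insertion site.
Apoa1 promoter, chr9:46228380-46228679, plus strand, no TTAA and 6 TA: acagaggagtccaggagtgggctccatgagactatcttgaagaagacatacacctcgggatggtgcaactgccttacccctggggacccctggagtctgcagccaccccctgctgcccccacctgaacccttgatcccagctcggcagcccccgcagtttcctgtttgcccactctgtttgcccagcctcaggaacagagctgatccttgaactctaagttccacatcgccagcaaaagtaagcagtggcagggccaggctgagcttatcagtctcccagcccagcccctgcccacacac
Apob promoter, chr12:7977427-7977726, plus strand, 1 TTAA and 8 TA: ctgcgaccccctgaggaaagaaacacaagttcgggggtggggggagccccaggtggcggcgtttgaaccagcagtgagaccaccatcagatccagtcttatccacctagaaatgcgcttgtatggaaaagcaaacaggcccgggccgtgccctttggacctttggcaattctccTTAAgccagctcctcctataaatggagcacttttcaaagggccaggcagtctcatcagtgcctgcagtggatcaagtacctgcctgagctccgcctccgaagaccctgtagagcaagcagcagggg
Apoe promoter of an alternative start, chr7:19698349-19698648, minus strand, 3 TTAA and 11 TA: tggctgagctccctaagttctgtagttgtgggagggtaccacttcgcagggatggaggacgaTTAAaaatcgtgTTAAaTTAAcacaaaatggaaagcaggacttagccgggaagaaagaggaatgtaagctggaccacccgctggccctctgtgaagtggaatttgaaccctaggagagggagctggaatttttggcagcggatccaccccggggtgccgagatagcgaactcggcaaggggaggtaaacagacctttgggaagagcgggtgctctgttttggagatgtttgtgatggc
Apoc2 promoter, chr7:19677892-19678191, minus strand, 3 TTAA and 10 TA: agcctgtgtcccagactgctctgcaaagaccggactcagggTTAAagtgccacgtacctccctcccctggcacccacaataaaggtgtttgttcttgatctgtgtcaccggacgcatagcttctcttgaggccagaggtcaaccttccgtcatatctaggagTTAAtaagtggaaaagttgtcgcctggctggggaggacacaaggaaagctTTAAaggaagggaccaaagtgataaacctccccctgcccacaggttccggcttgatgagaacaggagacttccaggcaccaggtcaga

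In the order of genes of the same RefSeq annotation, Apoa1, Apoc3, Apoa4 and Apoa5 follow each other between Sik3 on the Apoa1 side and Zpr1 and Bud13 on the Apoa5 side. Apob lies between Klhl29 and Ldah. Apoc2, Apoc4, Apoc1 and Apoe follow each other after Clptm1 and Gm44805 and before Tomm40, with Nectin2 beyond Tomm40. No site was assigned to a gene, exon, intron or UTR, since no annotation of GRCm39 was used here.

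Livers held 16364 to 124238 nuclear sites in PB and 4893 to 120219 in SB. A site is a position and strand found in a liver. Densities below are sites per 10000 nuclear sites of the liver per Mb, so that livers of different depth can be compared. SB liver 13 had the fewest sites, and there a single site weighs most. Each liver was taken as 1 replicate. The labels do not say that the livers of a group differ in more than their number. The p-values treat these livers as independent replicates, which the labels cannot show.

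The first question was whether the apolipoprotein windows took up more insertions than their surroundings, 1 Mb on each side. In PB livers each of the 3 windows was denser than its flanks in 17 of 17 livers, by 3.08 to 3.66 times in the means. In SB livers the windows were also denser on average, by 1.26 to 2.01 times.

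The Apoa1 cluster window held 492 PB and 155 SB sites. PB livers ranged from 7.1 to 22.4 sites per 10000 per Mb, with a median of 13.2, and SB livers from 3.24 to 9.54, with a median of 5.79. All but 1 PB liver lay above the highest SB liver, so the groups barely overlapped. Mean densities were 13.8 ± 4.08 (PB, SD, n = 17) and 5.67 ± 1.62 (SB, SD, n = 13), a ratio of 2.43 (permutation test, two-sided, 100000 resamples, p = 1e-05, the smallest these resamples can give). The flanks went the other way, with 3.76 ± 0.605 in PB and 4.51 ± 0.915 in SB (permutation test, p = 0.0063).

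Relative to its flanks, the Apoa1 cluster window stood at 1.75 ± 0.49 in PB (SD, n = 17) on the log2 scale, with 0.5 sites added to both counts (exact sign-flip permutation test, p = 1.5e-05, the smallest that 17 livers allow). In SB it stood at 0.29 ± 0.42 (SD, n = 13; exact sign-flip permutation test, p = 0.029), and 9 of 13 SB livers were above their flanks. The difference between PB and SB was 1.46 (permutation test, p = 1e-05). Against the left flank alone the SB value fell to 0.06 and the PB value to 1.25 (exact sign-flip permutation tests, p = 0.66 and p = 1.5e-05). The SB density of the left flank was 5.49 ± 1.78 and that of the right flank 3.54 ± 0.646 (SD, n = 13). PB livers held 5.55 ± 1.34 on the left and 1.97 ± 0.492 on the right (SD, n = 17), so only the right flank was sparser than in SB. In PB the dense stretch began outside the window: the 250 kb before it held 11.3 to 21.8 sites per 10000 per Mb in each 50 kb bin.

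The Apob window held 417 PB and 154 SB sites. PB livers ranged from 8.89 to 22 sites per 10000 per Mb (median 15.6), and SB livers from 0 to 11.2 (median 7.52). SB liver 13 was the liver with no site there. Of 17 PB livers, 16 lay above the highest SB liver. Means were 16.4 ± 3.25 (PB, SD, n = 17) and 7.71 ± 3.1 (SB, SD, n = 13), a ratio of 2.13 (permutation test, p = 1e-05). The flanks held 5.33 ± 0.652 in PB and 4.85 ± 0.956 in SB, a difference that did not pass (permutation test, p = 0.12).

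Relative to its flanks, Apob stood at 1.52 ± 0.38 in PB and 0.57 ± 0.55 in SB on the log2 scale (exact sign-flip permutation tests, p = 1.5e-05 and p = 0.0044). The difference of 0.95 passed the test (permutation test, p = 2e-05). The flanks of Apob were uneven. The left flank held 2.06 ± 0.654 sites per 10000 per Mb in PB and the right flank 8.61 ± 1.1 (SD, n = 17), and in SB these were 3.25 ± 0.923 and 6.45 ± 1.87 (SD, n = 13). Against the right flank alone the SB value was 0.20 and the PB value 0.88 (exact sign-flip permutation tests, p = 0.13 and p = 3.1e-05).

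The Apoe cluster window held 170 PB and 78 SB sites and was the least dense of the 3 in PB. PB livers ranged from 3.95 to 24.4 sites per 10000 per Mb (median 9.02), and SB livers from 1.98 to 13.6 (median 5.73). The groups overlapped, with 3 of 17 PB livers above the highest SB liver, which was SB liver 13 with 1 site in the window. Those 3 were PB livers 13, 14 and 16, with 6 sites each in the window and at most 28110 nuclear sites. The lowest PB liver was PB liver 17, with 1 site in the window. PB livers 1 to 12 reached 12.2. Without SB liver 13 the SB livers reached 9.43, and 8 of 17 PB livers lay above that. Means were 10.3 ± 4.97 (PB, SD, n = 17) and 6.06 ± 2.81 (SB, SD, n = 13), a ratio of 1.7 (permutation test, p = 0.0067). Relative to its flanks the window stood at 1.41 ± 0.58 in PB and 0.70 ± 0.56 in SB (exact sign-flip permutation tests, p = 1.5e-05 and p = 0.0017), and the difference was 0.71 (permutation test, p = 0.0023). The SB value was 0.22 against the left flank alone (exact sign-flip permutation test, p = 0.29) and 0.24 with flanks of 0.5 Mb (p = 0.17). The PB value fell to 1.01 and 0.95 in the same order (exact sign-flip permutation tests, p = 7.6e-05 and p = 6.1e-05). The right flank was sparse in both systems, with 1.89 ± 0.521 in PB and 1.53 ± 0.44 in SB. From 500 kb after the window start, no 50 kb bin mean of this flank exceeded 0.503 in PB or 0.229 in SB.

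Reused positions bear on these ratios. Once every position shared by livers of a group was left out, the PB to SB ratio of densities was 1.52 at the Apoa1 cluster (permutation test, p = 0.014) and 1.42 at Apob (permutation test, p = 0.036). At the Apoe cluster it was 0.826 (permutation test, p = 0.43), so the ratio turned below 1 and did not pass. The difference relative to the flanks was then 0.68 at the Apoa1 cluster (p = 0.023), 0.30 at Apob (p = 0.3) and -0.12 at the Apoe cluster (p = 0.67), all by permutation tests. That removal takes far more PB than SB sites, so it does not treat both systems alike. Within PB alone, windows still stood above their flanks, at 1.02, 0.91 and 0.54 in the same order (exact sign-flip permutation tests, p = 0.0012, p = 0.0011 and p = 0.024).

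**Figure D1:**
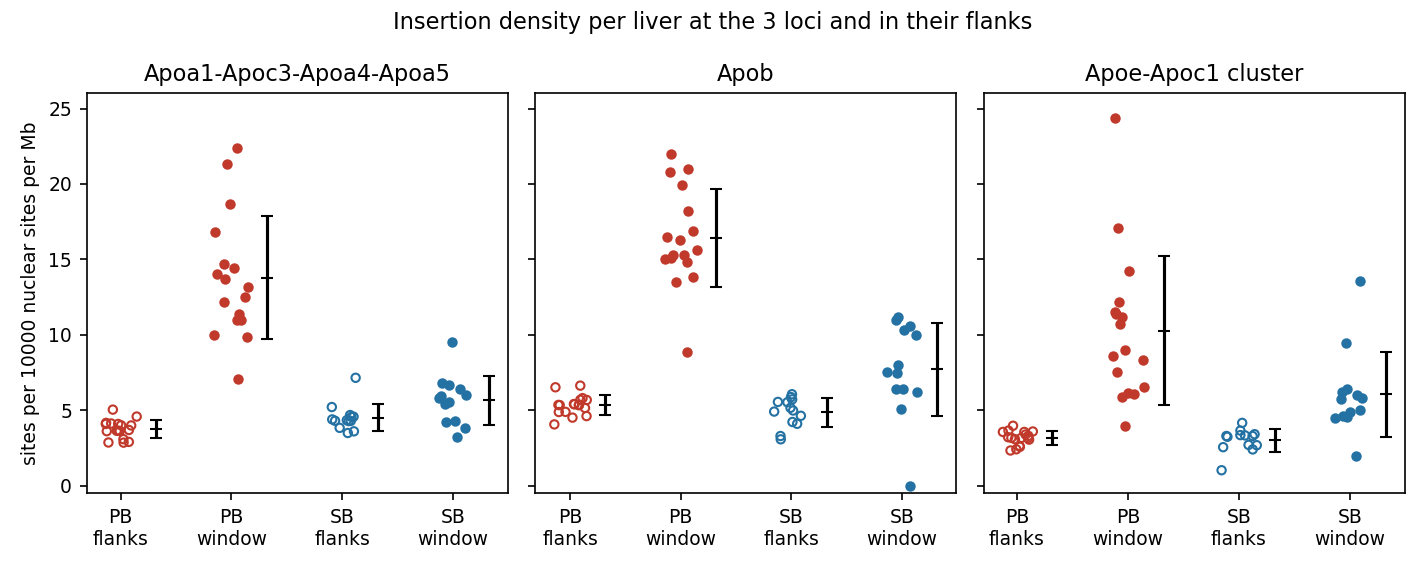
Sites per 10000 nuclear sites per Mb in each liver (points; red PB, n = 17; blue SB, n = 13; filled for the locus window, open for its flanks of 1 Mb on each side), with the mean and SD in black. PB window values reach 22.4, 22 and 24.4 at the Apoa1 cluster, Apob and the Apoe cluster, and PB window means lie above SB window means in all 3 panels.

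The labels give no batch. Densities were also compared within sets of liver numbers, chosen with earlier results of these data known. In livers 1 to 6 the PB to SB ratio was 1.79 at the Apoa1 cluster, 1.8 at Apob and 1.62 at the Apoe cluster (exact permutation tests, n = 6 each, p = 0.0043, p = 0.0022 and p = 0.019). In livers 7 to 12 it was 3.03, 2.54 and 1.7 (exact permutation tests, n = 6 each, p = 0.0022, p = 0.0022 and p = 0.0065). All 3 loci therefore had the higher PB density within both sets. PB livers 13 to 17 had means of 15.8 ± 5.75 at the Apoa1 cluster, 13.5 ± 2.66 at Apob and 13.3 ± 8.25 at the Apoe cluster (SD, n = 5), with no SB set to compare.

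Set against all autosomal tiles of the same length with at least 30 sites, the Apoa1 cluster was denser in PB than 98.1% of 7920 tiles of 300 kb. Apob was denser than 98.7% of 11832 tiles of 200 kb, and the Apoe cluster than 90.7% of 15484 tiles of 150 kb. In SB the same shares were 76.0%, 92.5% and 78.7%. For density over flanks, the windows exceeded 97.9%, 96.3% and 96.5% of tiles in PB, in the same order. In SB they exceeded 75.2%, 89.6% and 96.5%, so at the Apoe cluster this share was the same in both systems. These shares use both flanks, and the right flank of the Apoe cluster was sparse in both systems. Tiles were not compared by a single flank. The PB to SB ratio of the Apoa1 cluster exceeded that of 99.6% of tiles, where the median ratio was 0.797. For Apob the share was 98.1% and for the Apoe cluster 92.9%. These places in the order are descriptions of these livers.

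**Figure D2:**
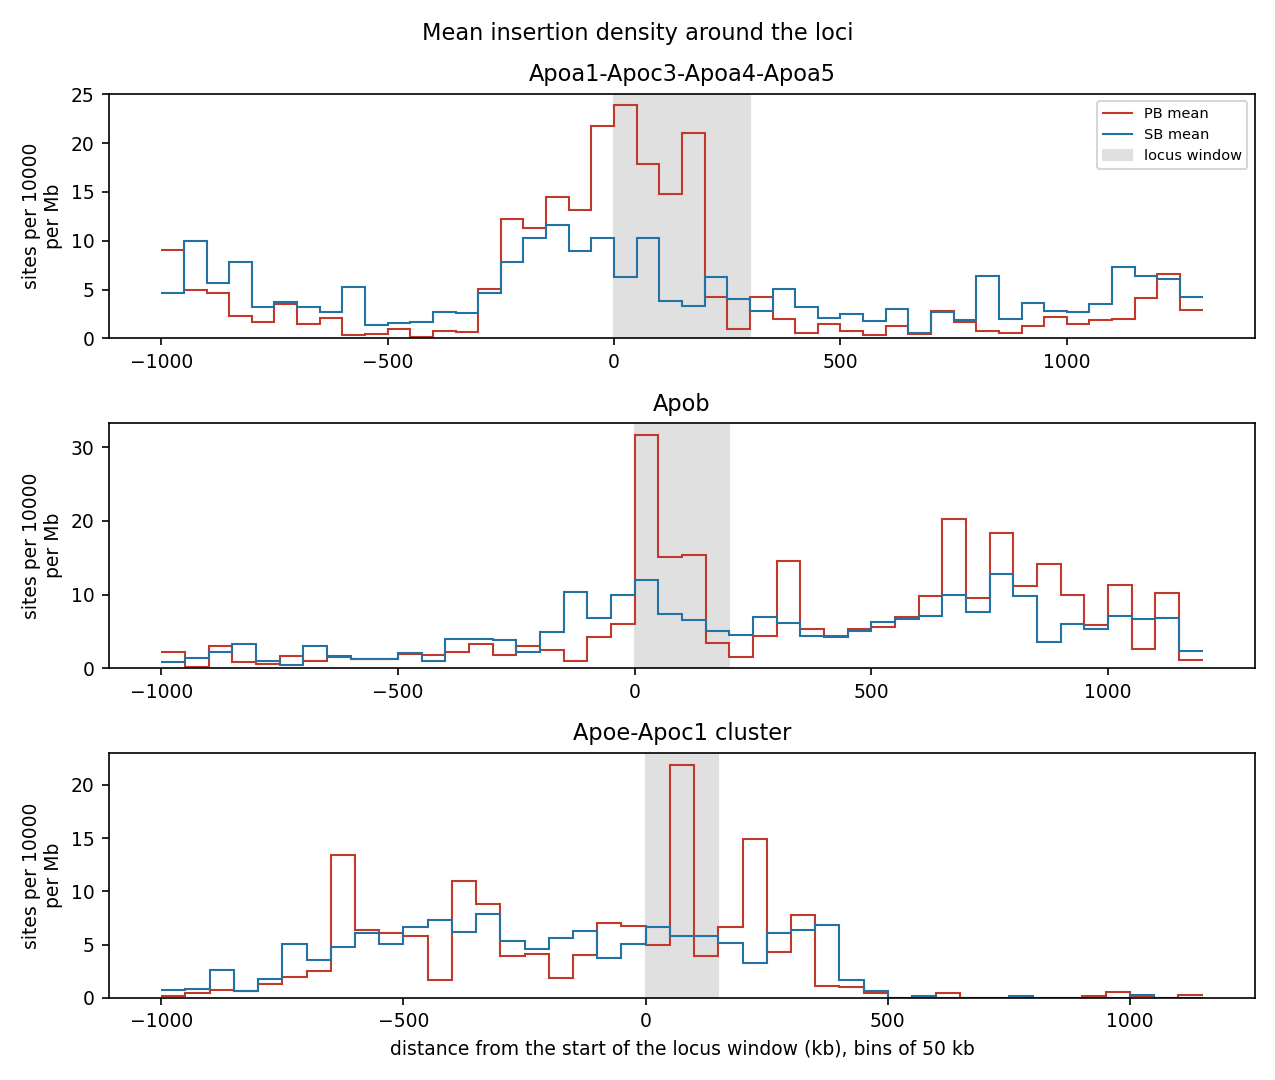
Mean density over livers in bins of 50 kb (red PB, n = 17; blue SB, n = 13) from 1 Mb before to 1 Mb after each locus window (grey), with distance from the window start in kb. The PB bin at the start of the Apob window reaches 31.7 and the PB bin 50 to 100 kb into the Apoe cluster window 21.9, and the PB plateau of the Apoa1 cluster begins about 250 kb before the window.

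The 3 windows were then split into 13 windows of 50 kb and tested between PB and SB along with the whole genome. Of the 12 with an average of 1 site or more in a liver, 8 were higher in PB (edgeR quasi-likelihood test, Benjamini-Hochberg adjusted p under 0.05 over 24057 windows). Of all windows tested, 15.4% were called higher in PB and 10.7% higher in SB (26.1% in either direction). The 8 called windows held a mean of 3.7 to 8.53 sites per liver, and the other 4 held 1.57 to 1.9. In a fit of only the windows with a mean of at least 2 sites per liver, 3844 of 11550 were higher in PB. There 427 were higher in SB, and the median log2 ratio was 0.40. The median log2 ratio of PB over SB over all windows was -0.10. None of the 12 was called higher in SB. At an unadjusted p under 0.05 there was 1 with edgeR, and 1 was called with limma-voom and 4 with DESeq2. With TMM scaling the genome-wide counts turned from 3704 higher in PB and 2573 in SB to 2693 and 3150, while the 12 windows kept all their calls.

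Within the Apoa1 cluster, the bins of the first 200 kb were all called higher in PB, but livers separated unequally among them. The bin from 150 to 200 kb held 21 ± 7.2 PB sites per 10000 per Mb (range 11.9 to 36.7, n = 17) and 3.29 ± 3.53 SB sites (range 0 to 11, n = 13), so that 17 of 17 PB livers lay above the highest SB liver. Its log2 difference was 2.46 (SE 0.31, edgeR adjusted p = 3.8e-13), larger than in 99.8% of windows tested. The 3 bins before it differed by 1.71 (SE 0.26), 1.21 (SE 0.27) and 1.65 (SE 0.32), with edgeR adjusted p = 2.5e-09, 0.00015 and 5.1e-06. There, 15, 1 and 10 of 17 PB livers lay above the highest SB liver, and 15, 4 and 10 without SB liver 13. In the bin from 50 to 100 kb PB livers ranged from 0 to 48.9 and SB livers from 1.66 to 40.9. That SB maximum was SB liver 13, with 1 site, and without it SB livers reached 22.9. From 200 to 250 kb the means were 4.2 ± 3.51 in PB and 6.26 ± 6.75 in SB, and the difference of -0.59 (SE 0.39) did not pass (edgeR adjusted p = 0.26). From 250 to 300 kb only 7 PB sites and 21 SB sites were found, too few for the filter. With no filter that bin stood at -1.69 (edgeR adjusted p = 0.018).

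At Apob the first 3 of 4 bins were called. The first, from 0 to 50 kb, was the densest of all 13, with 31.7 ± 11.1 PB sites per 10000 per Mb (range 12.2 to 49.1, n = 17) and 12 ± 5.68 SB sites (range 0 to 20.8, n = 13). Here 13 of 17 PB livers were above the highest SB liver, and the log2 difference was 1.28 (SE 0.21, edgeR adjusted p = 2.1e-08). The next bins differed by 1.06 (SE 0.27, edgeR adjusted p = 0.00087) and 1.17 (SE 0.28, edgeR adjusted p = 0.00048). The last held 3.38 ± 4.01 PB and 5.03 ± 3.9 SB sites, with a difference of -0.41 that did not pass (SE 0.42, edgeR adjusted p = 0.49).

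At the Apoe cluster a single bin carried the PB excess. From 50 to 100 kb PB livers held 21.9 ± 9.83 sites per 10000 per Mb (range 9.9 to 48.9, n = 17) and SB livers 5.8 ± 10.8 (range 0 to 40.9, n = 13). The SB maximum was SB liver 13, with 1 site. Without it SB livers held 2.87 ± 2.33 (range 0 to 7.72, n = 12), and 17 of 17 PB livers lay above the highest SB liver, against 1 of 17 with it. The log2 difference of 2.53 (SE 0.32, edgeR adjusted p = 2.3e-13) was the 30th highest of 24057 windows. The bins on either side lay below 0, at -0.88 (SE 0.39, edgeR adjusted p = 0.077) and -0.55 (SE 0.39, edgeR adjusted p = 0.31), without passing. The bin of -0.88 passed with limma-voom (adjusted p = 0.028), with DESeq2 (adjusted p = 0.00026), in livers 1 to 12 (edgeR adjusted p = 0.035) and with column 4 numbers of at least 10 (edgeR adjusted p = 0.015).

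With shared positions left out, 2 of 12 bins kept the call. In that fit 2.72% of all windows were called higher in PB and 3.8% in either direction. They were the first bin of the Apoa1 cluster (log2 difference 1.17, edgeR adjusted p = 0.02) and the second of Apob (1.00, edgeR adjusted p = 0.046). The bins from 150 to 200 kb of the Apoa1 cluster and from 50 to 100 kb of the Apoe cluster were then at 1.28 (edgeR adjusted p = 0.055) and 1.14 (edgeR adjusted p = 0.14). With the size factors of DESeq2, which moved the median window to -0.99, 4 bins stayed called higher in PB: those from 0, 100 and 150 kb of the Apoa1 cluster and from 50 kb of the Apoe cluster.

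**Figure D3:**
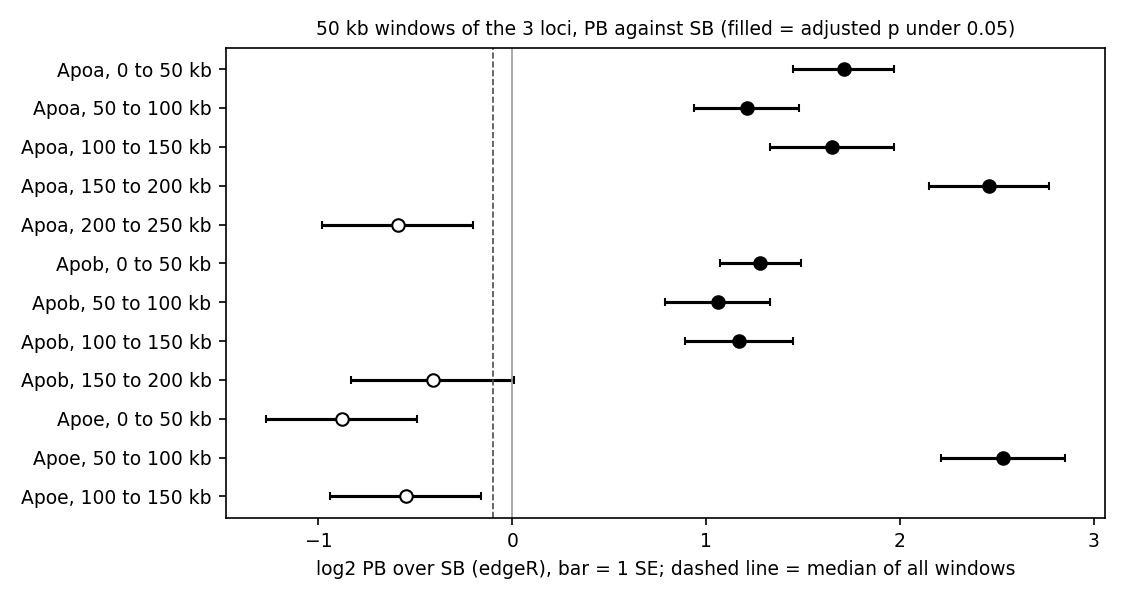
Log2 ratio of PB over SB for the 12 windows of 50 kb that were tested (points; bars 1 SE; filled where the adjusted p was under 0.05), by locus and distance from the window start, with the median of all windows as a dashed line at -0.10. The filled points lie between 1.06 and 2.53, and the 4 open points between -0.88 and -0.41.

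Part of the PB sites lay in a few peaks of 10 kb. A peak is a bin denser than 99% of 230581 autosomal bins, which is 37.3 sites per 10000 per Mb in PB and 20.2 in SB. Peaks thus make up 1% of all bins. In PB 5 of 65 bins were peaks, 2 in the Apoa1 cluster, 2 at Apob and 1 in the Apoe cluster. In SB there was none. Leaving out SB liver 13, where a single site adds 15.7 to the mean of a bin, lowered the SB limit to 15.2 (1% of bins) and gave 3 SB peaks, 2 at Apob and 1 in the Apoe cluster.

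The densest PB bin of the Apoa1 cluster, from 170 to 180 kb, held 67 sites at 16 positions in 17 of 17 livers, at a density of 59.3, which is 13.6% of the PB sites of that window. In SB the same 10 kb held 5 sites. The densest PB bin of Apob, from 20 to 30 kb, held 70 sites at 31 positions in 15 livers, at a density of 56.2, or 16.8% of its window, and the bin before it held 62 sites at 27 positions. SB was also densest from 20 to 30 kb, with or without SB liver 13, with 18 sites at 17 positions in 7 livers and a density of 18. In the Apoe cluster the bin from 60 to 70 kb held 61 PB sites at 23 positions in 16 livers, at a density of 59.2. That is 35.9% of the PB sites of the window, the most concentrated of the 3 loci. SB held 3 sites in those 10 kb.

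The highest SB mean in the Apoa1 cluster, 20.2 from 90 to 100 kb, rested on SB liver 13 and was 4.86 without it. The highest SB bin was then that from 20 to 30 kb, with 13 sites and a density of 14. In the Apoe cluster the highest SB mean, 18.2 from 50 to 60 kb, was 2.67 without SB liver 13, and the bin from 40 to 50 kb took its place with 16 sites in 9 livers and a density of 17.1.

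**Figure D4:**
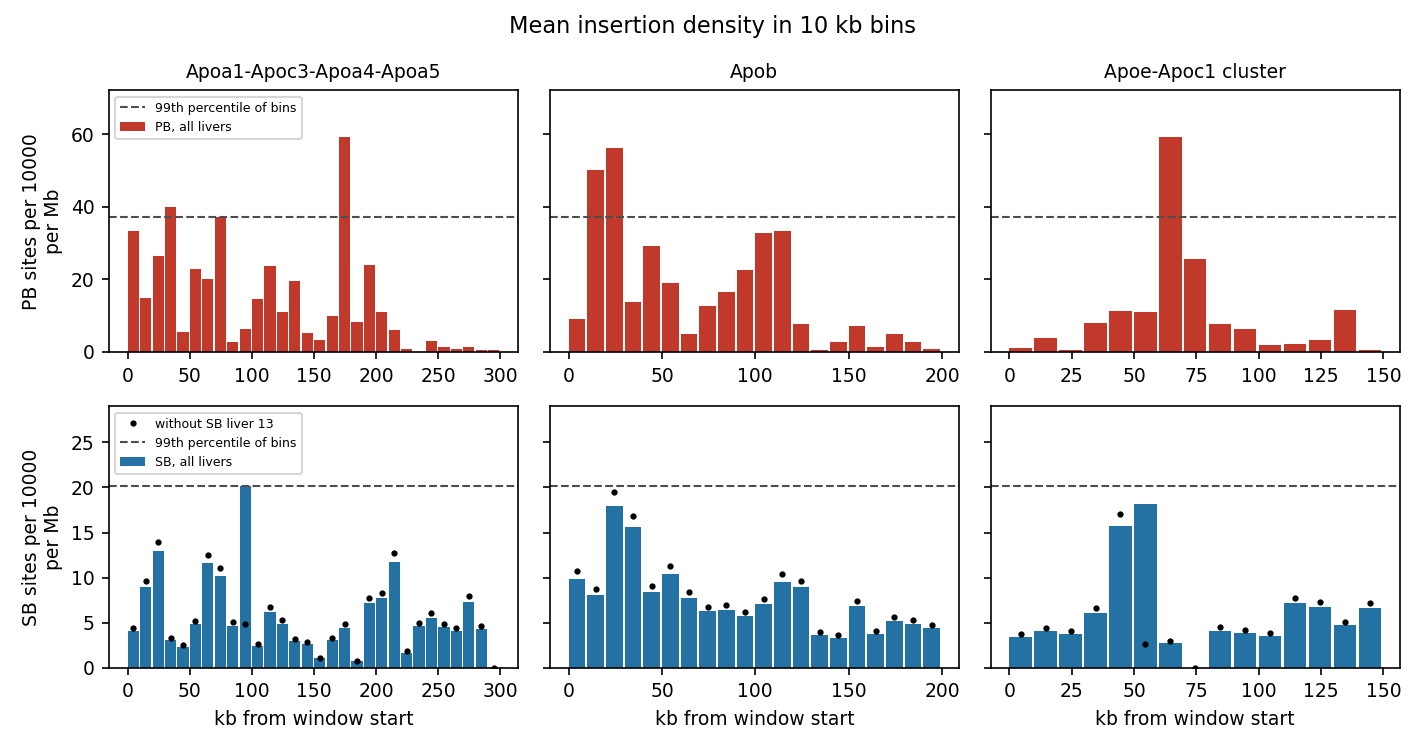
Mean density in bins of 10 kb across each locus window (upper row PB, n = 17; lower row SB, n = 13), with distance from the window start in kb, black points for SB means without SB liver 13 and the 99th percentile over all autosomal bins as a dashed line (for all livers). PB bins above the line stand at 39.8 and 59.3, at 50.2 and 56.2, and at 59.2.

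PB returned to the same positions in many livers, and SB seldom did. Of 278 PB positions in the Apoa1 cluster window 88 (31.7%) were found in more than 1 liver, of 254 at Apob 83 (32.7%), and of 93 in the Apoe cluster 41 (44.1%). In SB these numbers were 2 of 153, 2 of 152 and 3 of 75. The share of such positions over the whole genome is not given here, so these counts are not set against it. Counted by liver, 48.9% ± 12.8 of PB sites in the Apoa1 cluster shared position and strand with a site of another PB liver (SD, n = 17), against 29.9% ± 8.1 in its flanks and 29.3% ± 1.37 over all nuclear sites. At Apob the share was 44% ± 10.6, against 31.1% ± 6.08 in its flanks, and in the Apoe cluster 45.4% ± 19, against 40.1% ± 9.2. In SB the shares were 1.03% ± 2.52 (n = 13), 0% in the 12 livers with a site at Apob, and 6.68% ± 7.61 (n = 13), against 2.14% ± 0.15 over all nuclear sites. The SB flanks held 3.98% ± 2.49, 2.08% ± 1.68 and 2.27% ± 2.76 in the same order. Each coincidence counts in both livers and dense stretches give more of them, so these shares are descriptions without a test.

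The PB position found in most livers of the Apoa1 cluster was chr9:46170389-46170392, in 12 of 17 livers with 10 plus-strand and 7 minus-strand records. In 5 of these livers both strands were present. A neighbour in the same peak, chr9:46170404-46170407, was found in 9 livers with 6 records on each strand, and chr9:46075000-46075003 also in 9 livers with 5 plus-strand and 8 minus-strand records. At Apob, chr12:7970009-7970012 was found in 10 livers with 9 plus-strand and 4 minus-strand records, chr12:7960355-7960358 in 9 livers and chr12:7970187-7970190 in 7. In the Apoe cluster, chr7:19411901-19411904 was found in 9 livers with 5 records on each strand, chr7:19414453-19414456 in 7 livers and chr7:19414857-19414860 in 6. All 9 positions carried both orientations, and those of the Apoe cluster lie in its 10 kb peak.

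No SB position of the 3 windows was found in more than 2 livers. Those of the Apoa1 cluster were chr9:46279581-46279582, on the minus strand in both livers, and chr9:46021087-46021088, on opposite strands. At Apob, chr12:8006976-8006977 and chr12:7974522-7974523 were each hit on opposite strands. In the Apoe cluster chr7:19447259-19447260 and chr7:19455740-19455741 were on the plus strand, and chr7:19496805-19496806 on the minus strand, in both of their livers.

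The share of minus-strand sites was near an even split in PB and was less precisely known in SB. The minus strand held 49.8% of 492 PB sites in the Apoa1 cluster (exact binomial 95% interval 45.3% to 54.3%), 48.9% of 417 at Apob (44% to 53.8%) and 54.1% of 170 in the Apoe cluster (46.3% to 61.8%). In SB it held 58.1% of 155 (49.9% to 65.9%), 54.5% of 154 (46.3% to 62.6%) and 39.7% of 78 (28.8% to 51.5%). Every interval holds an even split. These intervals cover counting error only. Per liver with at least 5 sites, the minus share differed between PB and SB by -7.57, -4.49 and 11.9 percentage points in the same order. None of these passed (permutation test with 17 PB and 12 SB livers, p = 0.22 and p = 0.44; exact permutation test with 15 PB and 9 SB livers in the Apoe cluster, p = 0.091). Single livers ranged widely, in SB at the Apoa1 cluster from 30% to 100%.

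The deposited tables give each site a whole number in column 4, whose meaning is not given in the sources used here, so it is compared only within these data. No difference in its median between a window and its flanks passed. It was at least 3 in every liver. The median per liver was 73.5 ± 43.9 in PB in the Apoa1 cluster, against 71.4 ± 40.1 in its flanks (SD, n = 17), and 53.9 ± 12.8 in SB against 55.7 ± 20.4 (SD, n = 12, livers with at least 5 sites). Within livers, window minus flank on the log2 scale was 0.03 ± 0.17 in PB and -0.02 ± 0.35 in SB (exact sign-flip permutation tests, p = 0.49 and p = 0.88). At Apob it was 0.07 ± 0.22 in PB and -0.01 ± 0.35 in SB (p = 0.19 and p = 0.91), and in the Apoe cluster -0.07 ± 0.29 (n = 15) and -0.04 ± 0.59 (n = 9), with p = 0.34 and p = 0.85, all by exact sign-flip permutation tests. With means in place of medians the PB value at Apob was 0.24 (exact sign-flip permutation test, p = 0.02). No difference between PB and SB passed at any of the 3 loci (permutation tests, p = 0.65 and p = 0.43; exact permutation test in the Apoe cluster, p = 0.84).

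In the Apoa1 cluster and at Apob the largest column 4 number of the window belonged to the PB position found in most livers. At Apob the record with the highest number was 447 in PB liver 14, on the plus strand of chr12:7970009-7970012, above nearly all sites of that liver, whose median was 117. In the Apoa1 cluster it was 400 in PB liver 1, on the minus strand of chr9:46170389-46170392, higher than 99.9% of its sites. In the Apoe cluster it was 280 in PB liver 1, at chr7:19433566-19433569 on the plus strand, higher than 99.5% of its sites. The highest SB numbers were 165 at chr9:46075790-46075791 (SB liver 5), 176 at chr12:8006976-8006977 (SB liver 5) and 154 at chr7:19461486-19461487 (SB liver 8), higher than 94.7%, 95.9% and 98.8% of the sites of their livers. That at Apob was a position found in 2 SB livers.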

How the data were processed

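Each deposited per-liver table lists chromosome, start, end and, in column 4, the strand with a whole number whose meaning is not given in the sources used here. Per the submitters' processing notes, cutadapt and BWA were used and the build was GRCm39; no versions are listed. The 2 merged tables hold deposited counts of records per position over livers 1 to 12, which equalled the per-liver records at every position of the 3 windows. The windows, lists and tests were chosen with earlier results of these data known. Named were the densest 10 kb bin, the 3 positions found in most livers and the highest column 4 number of each locus and group.

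Densities, shares and permutation tests were computed in Python 3.11.15 (scipy 1.17.1, pandas 2.3.3, numpy 2.4.6). Sites per 50 kb window were tested with edgeR 4.0.16 in R 4.3.3 (quasi-likelihood, nuclear sites per liver as library size), with limma 3.58.1 (voom) and DESeq2 1.42.0 as alternatives. SE is the log2 difference divided by the square root of F. Locus p-values are not adjusted over the 3 loci. Reads were amplified by PCR with no molecular identifiers, so intervals cover counting error only. A RefSeq gene table and promoters of GRCm38.p6 gave names and letters only.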

Additional observations from a re-analysis of the deposited data

Results flagged for a closer look

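The density of each locus window relative to its flanks differed between PB and SB livers in a direct test of that difference. The differences were 1.46 on the log2 scale at the Apoa1 cluster, 0.95 at Apob and 0.71 at the Apoe cluster (PB minus SB, permutation tests over 17 PB and 13 SB livers, p = 1e-05, p = 2e-05 and p = 0.0023). The difference at Apob no longer passed, and that at the Apoe cluster changed sign, without positions found in more than 1 liver.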

How the results depend on the processing

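The PB to SB ratio of densities at the Apoa1 cluster and Apob, and the PB value over the flanks at all 3 loci, kept their direction and passed in every alternative run for them. With positions shared by livers left out, the Apoe cluster ratio was 0.826, the differences over flanks 0.30 at Apob and -0.12 at the Apoe cluster, the locus windows higher in PB 2, and all windows higher in PB 599 and in SB 239. The Apoe cluster difference was 0.63 with no pseudocount (permutation test, p = 0.051). The SB value over the flanks did not pass at the Apoa1 cluster in livers 1 to 6 (0.42), livers 7 to 12 (0.21) and against the left flank (0.06), at Apob against the right flank (0.20), and at the Apoe cluster in livers 1 to 6 (0.51), with flanks of 0.5 Mb (0.24) and against the left flank (0.22). These 2 liver sets hold fewer livers and were, like leaving out SB liver 13 for peaks, chosen after seeing the data. Taking the top 2% of bins gave 10 PB and 3 SB peaks, and leaving out SB liver 13 gave 3 SB peaks. With strand ignored, reused shares were 62.3%, 59.2% and 72.7% in PB at the Apoa1 cluster, Apob and the Apoe cluster, and 2.28%, 2.01% and 6.68% in SB. The mean in place of the median gave 0.24 for column 4 at Apob in PB.

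DESeq2 size factors gave 4 locus windows higher in PB and 4 in SB, with 746 and 12176 genome-wide. Its median window lay at -0.99. Windows of 100 kb gave 4 and 1 of 5 locus windows, and 2431 windows higher in PB genome-wide. Only windows of 100 kb wholly inside a locus were counted. The first and last 50 kb of Apob and the first 50 kb of the Apoe cluster were thus left out. Locus windows higher in SB numbered 1 with limma-voom, 1 with no filter, 2 in livers 1 to 12 and 1 with column 4 numbers of at least 10. Genome-wide, 4001 windows were higher in SB with no filter and 427 with a mean of at least 2 sites per liver. The cause of these changes was not tested.

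No pairing was assumed from the 13 shared liver numbers: same-numbered livers' deviations over 1 Mb windows correlated from -0.052 to 0.07, and for 1 number alone was this the best match. With the replicate block the density ratios were 2.26, 2.26 and 1.59 (exact sign-flip permutation tests, p = 0.00024, p = 0.00024 and p = 0.00073), 8 locus windows stayed higher in PB, and no locus call changed. The comparison of genes was not run, since it needs a gene table of GRCm39. Depth limits the Apoe cluster most, with a median of 7 SB sites per liver.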

Other observations

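An SB position lay in the middle of a PB position at 2 of 278 PB positions in the Apoa1 cluster, at 1 of 254 at Apob and at none of 93 in the Apoe cluster. Over all nuclear sites this was so for 0.232% of 908720 PB positions. With 3 such positions in all, no difference from the genome was tested. The variance of site counts between PB livers was 1.68 times that of counting alone in the Apoa1 cluster, 0.716 times at Apob and 1.27 times in the Apoe cluster. In SB these values were 0.724, 0.926 and 0.63.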
